A study of Mus musculus with 4 samples.

Results

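The epidermal differentiation complex is a cluster of genes on mouse chromosome 3 that encode proteins of the skin barrier. Here its members were the chromosome 3 genes whose symbol starts with Lce, Sprr or S100a, together with Flg, Lor, Ivl, Crnn and Hrnr. The mm9 gene annotation listed 57 such entries under 52 symbols, of 1623 entries on chromosome 3 and 37310 in all. Flg alone accounted for 6 entries. The members comprised 18 Lce, 16 Sprr and 13 S100a genes and the 5 single genes, and their starts fell in 28 bins of 40 kb. The region studied ran from 500 kb before the first member to 500 kb after the last, chr3:89814956-93868565 in mm9, and held 102 bins, of which 99 were kept in both contact matrices, of 61816 autosomal bins.

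In the outer layers of the epidermis, keratinocytes replace their plasma membrane with a cornified envelope, a shell of crosslinked protein. Involucrin (Ivl) is laid down early as a scaffold, loricrin (Lor) is its bulk component, and the small proline-rich (Sprr) and late cornified envelope (Lce) proteins reinforce it. Filaggrin (Flg), hornerin (Hrnr) and cornulin (Crnn) are fused-type S100 proteins of the granular layer, and filaggrin bundles keratin filaments. The S100a genes encode small calcium-binding proteins, many of them used outside skin. In embryonic stem cells the genes of the envelope are regarded as silent. Hi-C reports how often a stretch of DNA is ligated to every other stretch. A boundary is a site across which neighbouring contacts are depleted, and compartments A and B are sets of mostly active and mostly inactive regions that contact their own kind at long range.

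Hi-C was performed in male mouse embryonic stem cells (mESCs), either wild-type (WT) or labelled as knockout (KO) for Firre, an X-linked long non-coding RNA gene. Each of the 2 groups had 2 libraries, technical duplicates per the study's methods, whose reads were merged into 1 matrix. Without replicates no test between the groups could be run, and differences are set against counting error and against the rest of the genome. Chromatin was cut with HindIII and ligated in situ. The methods name N3 cells in 2i medium for WT, and 2i medium with irradiated feeder fibroblasts that were later depleted for Firre KO. Genotype, feeder culture and possibly cell line therefore cannot be told apart.

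The bin at the Firre gene, chrX:47920001-47960000, was not emptied in the Firre KO-labelled matrix. Its pairs within the X numbered 1550 of 906921 for WT and 1144 of 796087 for the other. Directions below thus refer to the Firre KO-labelled matrix and not to a checked deletion. The matrices held 65611035 and 46635652 read pairs, of which 16.1% and 35.6% joined different chromosomes. Pairs within chromosome 3 numbered 3102401 and 1670967. All intervals are 95% intervals and cover counting error only, since each group is a pooled matrix without replicates. These reads carry no molecular identifiers and need not be separate molecules, so the intervals may be too narrow even for counting error.

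The members fell into 4 runs. Along increasing coordinates, a proximal S100a run of 11 genes, from S100a1 to S100a9, covered 6 bins (chr3:90280001-90520000). A gap of 34 bins followed, with 3 protein-coding starts or 2.21 per Mb, among them the peptidoglycan recognition genes Pglyrp4 and Pglyrp3. The envelope run of 36 genes, Lor, Sprr, Ivl and Lce, covered 24 bins (chr3:91880001-92840000) with 46.9 protein-coding starts per Mb. The fused-type run of Crnn, Flg and Hrnr covered 6 bins (chr3:92920001-93160000). S100a11 and S100a10, the latter the partner of annexin A2, formed a distal S100a run of 2 bins (chr3:93320001-93400000). The inner part below means Lor to Hrnr, 32 bins.

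Sequence was examined first at the borders and at the promoters, because these are where boundary and transcription factors act. The consensus core motif of CTCF, a zinc finger protein that marks many boundaries, was searched on both strands of mm9. It matched 3 times in the proximal S100a run, or 12.5 matches per Mb. It matched 2 times in the gap (1.47 per Mb), 6 times in the envelope run (6.25 per Mb) and never in the fused-type run, where no match says only that these letters are absent. The kept bins of chromosome 3 held 3.47 matches per Mb. A choice of the matches within 1 bin of called borders, and those beside S100a6 and S100a10, are shown 5′ to 3′ on the strand of the motif, with the core in capitals. None of them lay inside a member by the gene annotation used here. One S100a3 start in RefSeq, which is used for the promoters below, follows chr3:90388580 and so lies before the first match shown.
chr3:90389753-90389788, plus strand, 14.4 kb from S100a3: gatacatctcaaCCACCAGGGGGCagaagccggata
chr3:90416702-90416737, plus strand, 0.1 kb from S100a6: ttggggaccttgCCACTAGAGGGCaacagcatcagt
chr3:90514144-90514179, minus strand, 14.5 kb from S100a9: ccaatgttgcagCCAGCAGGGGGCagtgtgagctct
chr3:91854790-91854825, plus strand, 29.4 kb from Lor: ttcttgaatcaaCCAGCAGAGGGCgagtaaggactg
chr3:91910605-91910640, minus strand, 23.6 kb from Lor: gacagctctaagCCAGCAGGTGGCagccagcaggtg
chr3:92857190-92857225, plus strand, 34.2 kb from Lce1m: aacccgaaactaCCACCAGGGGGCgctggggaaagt
chr3:93351165-93351200, plus strand, 7.8 kb from S100a10: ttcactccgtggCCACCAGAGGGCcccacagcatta

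Promoters were taken from RefSeq (GRCm38.p6, 250 bases before to 50 after each start) and matched by symbol for 47 of the 52 members, with 51 promoters among them. The AP-1 motif TGANTCA, read on either strand, and the TATA box TATAAA, read along the gene, were searched in these windows. AP-1 is a family of factors used by many keratinocyte genes. The AP-1 motif was present in 15 of the 51 promoters (29.4%), against 7.81% of all 32851 promoters of the table. By run, it was in 11 of 33 envelope promoters, 2 of 3 fused-type promoters, 1 of 14 proximal S100a promoters and the 1 distal S100a promoter, that of S100a11. Within the envelope run it was in 9 of 14 Sprr promoters and in those of Lor and Ivl, and in 0 of 17 Lce promoters. TATAAA was present in 21 of 51 (41.2%) against 8.32% of all promoters, and in 14 of the 33 envelope promoters. A match at any place in the window counted, and that of S100a9 lay after its start. The Sprr2 genes are near-identical copies, so their matches are not independent. Lor and Ivl are shown as the bulk envelope protein and the scaffold protein. Flg is shown because the bin of its first entry differed most between the matrices among the members' bins. The 250 bases before each start are given 5′ to 3′ along the gene with both motifs in capitals, and the mm9 position of the same sequence.
Lor, chr3:91887065-91887314, minus strand: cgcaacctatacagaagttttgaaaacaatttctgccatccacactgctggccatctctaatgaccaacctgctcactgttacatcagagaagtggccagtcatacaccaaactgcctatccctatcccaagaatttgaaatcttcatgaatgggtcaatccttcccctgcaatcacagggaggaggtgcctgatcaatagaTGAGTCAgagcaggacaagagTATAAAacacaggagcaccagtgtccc
Ivl, chr3:92377658-92377907, minus strand: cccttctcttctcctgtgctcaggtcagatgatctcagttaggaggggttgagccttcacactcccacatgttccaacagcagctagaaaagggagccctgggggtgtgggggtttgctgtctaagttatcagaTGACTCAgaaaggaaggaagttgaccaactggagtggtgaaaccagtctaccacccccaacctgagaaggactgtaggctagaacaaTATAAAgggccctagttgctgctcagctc
Flg, chr3:93077218-93077467, plus strand: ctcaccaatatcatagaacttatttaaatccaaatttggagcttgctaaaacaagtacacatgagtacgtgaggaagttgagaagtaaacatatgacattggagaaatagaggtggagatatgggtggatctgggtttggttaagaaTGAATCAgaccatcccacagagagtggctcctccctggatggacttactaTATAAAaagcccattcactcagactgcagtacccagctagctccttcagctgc

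Before the contacts were compared, the read pairs behind each bin were set side by side. Relative to the chromosome 3 median of the ratio between the matrices, the bins that hold members' starts ranged from 0.768 to 1.35. In the gap, 3 neighbouring bins (chr3:90920001-91040000, 120 kb) were low in the Firre KO-labelled matrix. They held 1227, 1229 and 1530 read pairs in WT and 286, 257 and 454 in the other, ratios of 0.317, 0.284 and 0.404 to the median. Beyond the distal S100a run, 3 bins (chr3:93560001-93680000) were high, with 1502, 2054 and 1742 read pairs in WT and 1927, 3952 and 2556 in the other, ratios of 1.75, 2.62 and 1.996. These bins overlap Tdpoz3 and Tdpoz4. Over chromosome 3, 17 of 3888 kept bins lay below 0.5 and 11 above 1.5. No member lies in either stretch.

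**Figure D1:**
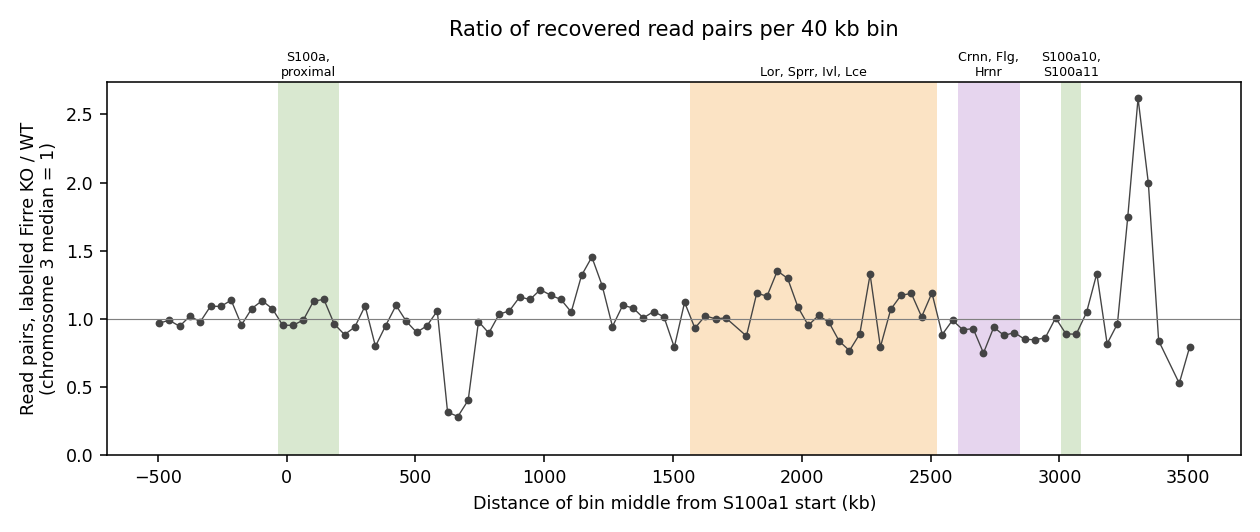
Ratio of recovered read pairs per 40 kb bin, Firre KO-labelled matrix over WT, scaled to a chromosome 3 median of 1, against distance from the S100a1 start in kb, with coloured bands for the runs of members. The 3 bins of the gap at 0.284 to 0.404 and the 3 bins past S100a10 at 1.75 to 2.62 stand apart, while bins with members' starts lie between 0.768 and 1.35.

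Borders of the complex were located from the insulation score, the log2 of contacts across a bin within a 480 kb square relative to the chromosome. In each matrix 5 boundaries were called in the region. The strongest lay inside the proximal S100a run in both, and not at the edges of the envelope genes. In WT it fell in the bin of S100a13, S100a14 and S100a16 (chr3:90320001-90360000), with a score of -2.68 and a strength of 2.57, rank 14 of 2569 autosomal boundaries. In the Firre KO-labelled matrix it fell 160 kb further on, in the bin of S100a9 (chr3:90480001-90520000), with a score of -4.05 and a strength of 2.90, rank 235 of 2392. S100a8 and S100a9, the subunits of the inflammatory protein calprotectin, thus lay beyond the lowest point of the profile in WT and at or before it in the other matrix.

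The plain mean of the square, which has a counting interval, separated the positions. At the WT border it was -1.32 (-1.40 to -1.24) in WT and -1.24 (-1.33 to -1.14) in the Firre KO-labelled matrix, intervals that overlapped. At the S100a9 bin it was -1.12 (-1.21 to -1.03) in WT and -2.08 (-2.24 to -1.93) in the other, from 833 and 182 read pairs in the square. By the plain mean the intervals overlapped at this front bin and were apart at the end of the run. The interquartile scores at the WT border bin were -2.68 in WT and -3.27 in the other matrix, without intervals and in the opposite direction to the plain means. The fewer read pairs of the latter matrix moved with this, and their part in it was not tested. A score as low as -2.68 was found in 21 of 58452 WT bins, and one as low as -4.05 in 82 of 58125 bins of the other. The plain mean and the uncorrected read pairs placed the strongest border 1 bin further on in both matrices, and kept the 160 kb between them. Other squares changed this picture. A 240 kb square put the strongest WT border of the region in the Lor bin, chr3:91880001-91920000, and the other in the first bin of the gap, chr3:90520001-90560000. A 960 kb square put it at chr3:90360001-90400000 in WT and at chr3:91680001-91720000, in the gap, in the Firre KO-labelled matrix. In the latter matrix this square gave the S100a9 bin no score, so no border could be called there. Scores were not given where the interquartile mean of the square was not positive. The 160 kb between the matrices thus held for the 480 kb square, and the place inside the S100a run in both held for its interquartile mean of corrected signal, since 1 bin past S100a9 is already the gap.

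The share of a bin's read pairs within 1 Mb that pointed towards lower coordinates was read for single bins of the run. For the bin of S100a1 and S100a13 it was 47.9% (45.5 to 50.2) in WT and 38.0% (34.9 to 41.3) in the Firre KO-labelled matrix. For the bin of S100a3, S100a4, S100a5 and S100a6 it was 60.9% (58.3 to 63.4) and 78.6% (75.6 to 81.3). For the S100a9 bin it was 61.9% (59.1 to 64.6) and 72.5% (68.4 to 76.2). By corrected signal, the shares of the run's 6 bins along increasing coordinates were 51.1%, 43.1%, 40.3%, 52.8%, 45.1% and 52.7% in WT. In the Firre KO-labelled matrix they were 40.5%, 37.5%, 58.1%, 75.1%, 66.4% and 63.4%. The first 2 bins, with S100a1, S100a13, S100a14 and S100a16, thus faced higher coordinates in the Firre KO-labelled matrix and the last 4, with S100a3 to S100a9, lower ones. WT showed no such turn along the run by corrected signal. By read pairs the WT shares in the same order were 47.9%, 47.5%, 46.5%, 60.9%, 53.3% and 61.9%, which do turn. The absence of a turn in WT thus depended on the correction.

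At the front edge of the envelope run the called border was the Lor bin in WT (score -0.44, strength 1.15, rank 741) and lay 80 kb earlier, in the bin of Pglyrp3, in the Firre KO-labelled matrix (score -0.45, strength 0.70, rank 1798). At the Lor bin the plain scores were equal within their intervals, -0.42 (-0.54 to -0.31) and -0.42 (-0.57 to -0.28). The rear border did not lie at the end of the inner part but within it, between Lce1m and Crnn (chr3:92840001-92880000). With the 480 kb square it lay between the envelope genes and the fused-type genes in both matrices, as it did with 240 kb. From uncorrected read pairs the nearest border moved into the envelope run, to the Lce1m bin (chr3:92800001-92840000) in WT and the bin of Lce3a to Lce3c (chr3:92720001-92760000) in the other matrix. With 960 kb it was the next bin in WT, chr3:92880001-92920000, and no border was called near it in the Firre KO-labelled matrix. Its score was -0.96 in WT (strength 1.08, rank 856) and -0.23 in the Firre KO-labelled matrix (strength 0.49, rank 1984). The plain means there, -0.71 (-0.82 to -0.59) and -0.27 (-0.40 to -0.14), did not overlap.

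The remaining boundaries held no member. One in the gap was weak in WT (strength 0.26, rank 2393) and stronger 80 kb further on in the Firre KO-labelled matrix (strength 0.95, rank 1535). The last, past S100a10 in the bin of Tdpoz1 (chr3:93440001-93480000), was at the same bin in both, with strengths of 0.63 and 0.76. In all, 2 of the 5 WT boundaries had one within 1 bin in the Firre KO-labelled matrix, beside 46.4% of 2569 WT boundaries over all autosomes, which is near this share. The count was 4 within 2 bins, 0 with the 960 kb square and 0 from uncorrected read pairs. With the 960 kb square the S100a9 bin of the Firre KO-labelled matrix had no score, so that border could not be counted. A CTCF core match lay in the boundary bin or 1 bin on each side for 3 of 5 boundaries in each matrix. The same held for 53.0% of autosomal boundaries in WT and 53.0% in the other matrix, and for 39.7% of all kept autosomal bins. The matched borders were those in the S100a run, at Lor or Pglyrp3, and between Lce1m and Crnn.

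**Figure D2:**
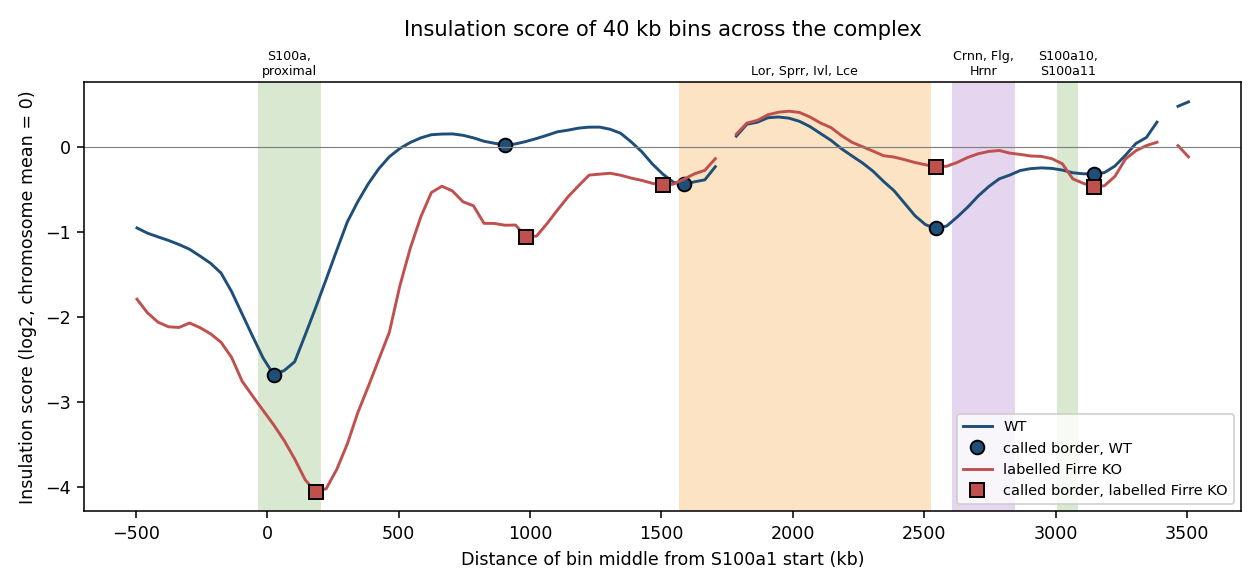
Insulation score (log2, chromosome mean 0) of 40 kb bins against distance from the S100a1 start in kb for both matrices, with called borders as circles (WT) and squares (labelled Firre KO). The lowest point lies in the proximal S100a run in both, at -2.68 in WT and 160 kb further on at -4.05 in the Firre KO-labelled matrix, while the dip between Lce1m and Crnn is deeper in WT (-0.96 against -0.23).

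Contacts within the runs had overlapping intervals in both matrices. Values are means of observed over expected contacts (O/E), with the expected value from chromosome 3 at the same distance. Within the proximal S100a run O/E was 1.26 (1.21 to 1.32) in WT and 1.31 (1.23 to 1.39) in the Firre KO-labelled matrix. Within the envelope run it was 1.21 (1.15 to 1.27) and 1.19 (1.11 to 1.26). Within the fused-type run it was 1.42 (1.3 to 1.54) and 1.44 (1.26 to 1.63), above 98.0% and 96.5% of runs of 6 bins elsewhere on autosomes. These 3 runs thus contacted themselves more than the chromosome mean. From uncorrected read pairs the proximal S100a values were higher, 2.93 and 3.20, while the envelope values, 0.599 and 0.627, and the fused-type value of the Firre KO-labelled matrix, 0.915, were below 1. Uncorrected values also follow each bin's number of read pairs, so their side of 1 alone does not show excess or depletion. Over the whole inner part O/E was 0.977 (0.934 to 1.02) and 1.07 (1.009 to 1.13), a log2 ratio of 0.13 (0.03 to 0.23). A ratio as low or lower was found in 75.2% of 57034 autosomal placements of this size, and 0% were at least 2-fold lower in the Firre KO-labelled matrix.

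Contacts between envelope and fused-type genes, across the border that separates them, were fewer in WT. O/E was 0.522 (0.443 to 0.602) in WT and 0.786 (0.669 to 0.903) in the Firre KO-labelled matrix, from 357 and 338 read pairs. Uncorrected read pairs gave 0.308 and 0.512. The log2 ratio was 0.59 (0.28 to 0.90), and 95.2% of 56891 placements of the same size and spacing had a ratio as low or lower. At least 2-fold higher were 0.241% of placements and at least 2-fold lower 3.36%.

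The proximal S100a run had fewer contacts with what follows it in the Firre KO-labelled matrix. With the gap its O/E was 0.634 (0.579 to 0.689) in WT and 0.183 (0.154 to 0.213) in the Firre KO-labelled matrix, from 1454 and 335 read pairs. The log2 ratio was -1.79 (-2.05 to -1.53), and 0.125% of 56717 placements of this size and spacing had a ratio as low, beside 2.68% that were at least 2-fold lower. Without the 3 gap bins of few read pairs the ratio was -1.73. With the inner part, the S100a run had an O/E of 1.06 (0.911 to 1.21) in WT and 0.378 (0.287 to 0.468) in the other matrix, from 257 and 81 read pairs. This log2 ratio was -1.49 (-1.89 to -1.09), and 6.70% of placements were as low, beside 16.7% at least 2-fold lower. At this distance the median placement was itself lower in the Firre KO-labelled matrix, by a log2 of -0.27. The proximal flank, which holds no member, had as low a ratio with the inner part, -1.59 (-2.19 to -0.99), from 163 and 40 read pairs. Of placements, 5.14% were as low, beside 15.4% at least 2-fold lower. With the distal flank its ratio was -3.05 (-4.05 to -2.05), from 54 and 12 read pairs, so the fewer contacts were not found for the S100a run alone. Towards lower coordinates, with the proximal flank, the run's O/E was 0.505 (0.473 to 0.537) and 0.565 (0.519 to 0.611). From uncorrected read pairs it was 0.974 and 1.07, values that also follow the number of read pairs of each bin. Neither depletion nor its absence is read from them.

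The distal S100a genes met the fused-type genes about as often as the chromosome mean in WT and less often in the other matrix. O/E between them was 1.10 (0.967 to 1.23) in WT, from 297 read pairs, and 0.4001 (0.285 to 0.515) in the Firre KO-labelled matrix, from 56. Uncorrected read pairs gave 1.77 and 0.556. The log2 ratio of -1.46 (-1.91 to -1.011) was as low in 1.21% of placements, beside 4.44% at least 2-fold lower. With the envelope genes the distal S100a run had an O/E of 0.499 (0.389 to 0.609) and 0.560 (0.425 to 0.695), intervals that overlapped. For the inner part as a whole the values were 0.654 (0.566 to 0.741) and 0.536 (0.431 to 0.640), a log2 ratio of -0.29 (-0.63 to 0.05), beside 5.35% of placements at least 2-fold lower.

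The proximal and distal S100a runs, which belong to the same gene family and lie on either side of the envelope genes, met rarely in absolute terms. They shared 31 read pairs in WT and 26 in the Firre KO-labelled matrix. O/E was 1.18 (0.752 to 1.60) and 1.49 (0.904 to 2.08). Both intervals held 1. Uncorrected read pairs gave 3.51 and 4.54, but these also follow each bin's number of read pairs. No excess over the chromosome mean is read from them. A difference between the matrices was not detectable at this depth, with a log2 ratio of 0.34 (-0.43 to 1.12), beside 30.8% of placements at least 2-fold lower.

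**Figure D3:**
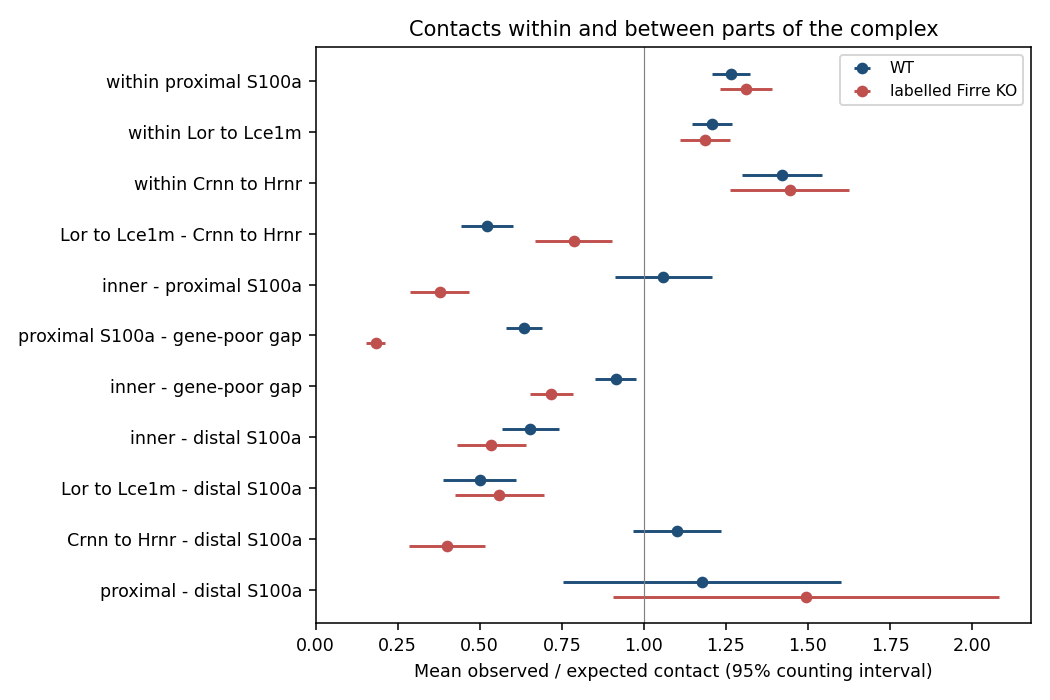
Mean observed over expected contacts within and between runs of the complex, with 95% counting intervals, for WT and the Firre KO-labelled matrix. Contacts within runs lie above 1 and overlap between matrices, while those of the proximal S100a run with the gap (0.634 and 0.183) and of the fused-type genes with the distal S100a genes (1.10 and 0.4001) are lower in the Firre KO-labelled matrix.

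**Figure D4:**
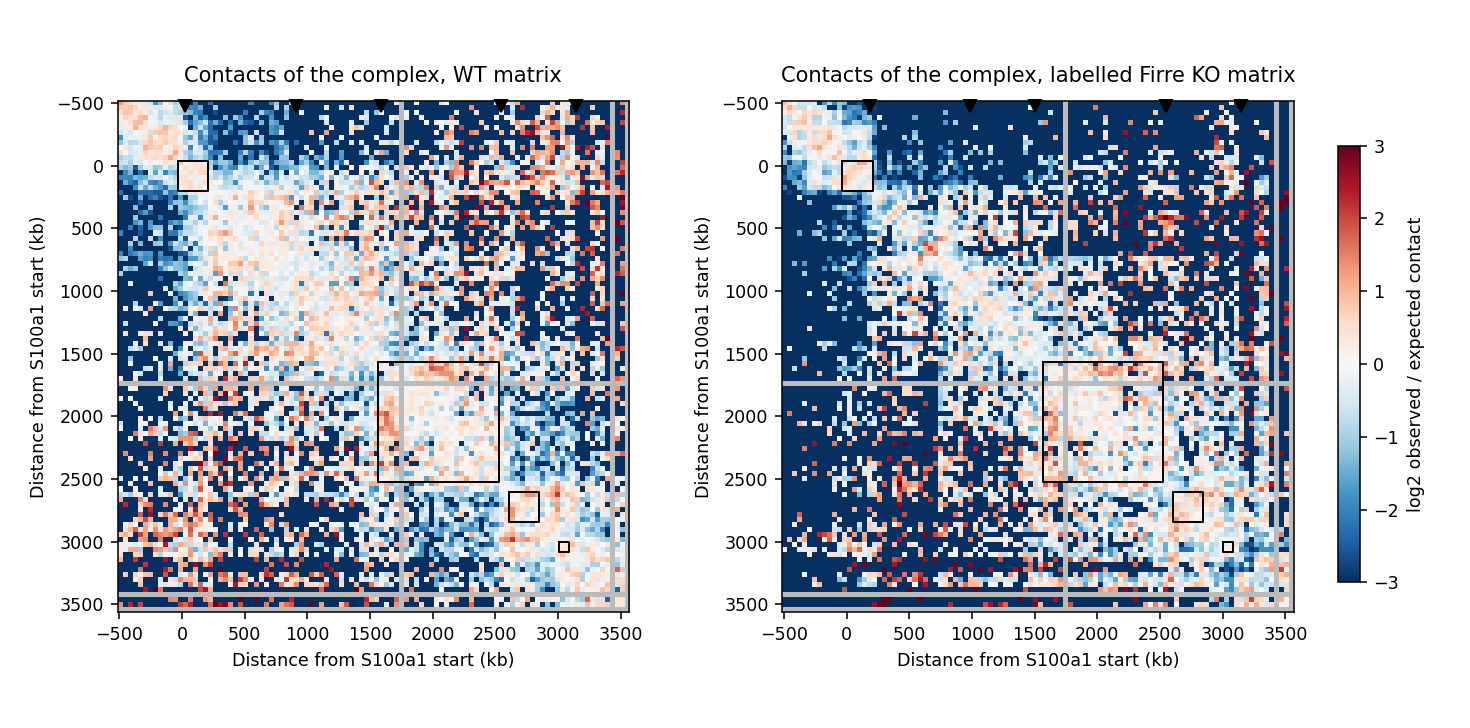
Contact maps of the region as log2 observed over expected per pair of 40 kb bins, WT on the left and the Firre KO-labelled matrix on the right, with axes in kb from the S100a1 start, runs of members boxed, called borders as triangles, bins without values in grey and pairs without reads at the lowest colour. Contacts of the S100a box with the gap that follows it are below expectation in WT (0.634) and lower in the other matrix (0.183), and in WT a depleted block separates Lor to Lce1m from Crnn to Hrnr.

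Compartments were called from the first eigenvector of 200 kb windows, and the compartment preference of a bin was the log2 of its O/E with A windows over that with B windows beyond 2 Mb, above 0 for A. The windows of the complex itself were left out as partners. On chromosome 3 the first eigenvector correlated with gene density at 0.545 in WT and 0.358 in the Firre KO-labelled matrix. It held 9.59% and 7.15% of the summed absolute eigenvalues. The second eigenvector, whose sign is arbitrary, correlated at 0.038 and 0.245. The A and B calls of the Firre KO-labelled matrix were thus less closely tied to gene density. The proximal S100a run straddled an A to B switch in both matrices. The eigenvector fell from 1.69 to -0.55 between its neighbouring windows in WT and from 1.60 to -0.80 in the other matrix, at chr3:90400001. Bin by bin, the preference in WT was 1.2 for S100a1 and S100a13, 0.54 for S100a14 and S100a16, 0.20 for S100a3 to S100a6, -0.01 for S100a7a and S100a8, and -0.49 for S100a9. In the Firre KO-labelled matrix the same bins had 0.83, 0.98, 0.58, 0.00 and -0.40. The order of the genes along the run was the order of their preference in WT. As a whole the run was at 0.27 (0.18 to 0.36) and 0.41 (0.28 to 0.54), a difference of 0.14 (-0.02 to 0.30). From uncorrected read pairs it was at 0.95 and 0.80, the opposite direction. With windows of the same sign in both matrices it was at 0.27 and 0.63. Contacts with other autosomes gave a difference of 0.16 (0.01 to 0.31).

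By corrected signal the envelope genes preferred B in both matrices. Their run was at -0.56 (-0.64 to -0.49) in WT and -1.08 (-1.20 to -0.96) in the Firre KO-labelled matrix, the 35.5th and 16.7th percentile of chromosome 3 bins. From uncorrected read pairs the run was at 0.04 (-0.02 to 0.11) in WT and -0.66 (-0.75 to -0.56) in the other matrix. Above 0 were 11 of its 17 bins with members in WT and 0 in the other, beside 67.2% and 58.2% of chromosome 3 bins. By this reading the median of chromosome 3 bins was itself at 0.35 and 0.25, so the WT run lay below the median by both readings but on the B side only by corrected signal. The Sprr genes, whose proteins bridge the envelope, included the lowest member in WT, at -1.08 for Sprr1a and Sprr4. Their median went from -0.87 to -0.97. The Lce genes, expressed late in cornification, were nearer 0 in WT, with a median of -0.45 and a highest value of 0.05 for Lce1f and Lce1g, against a median of -1.13 for the other matrix. Ivl was at -0.70 and -1.29. Lor was at -0.70 and -1.70, the lowest member of that matrix. Lce3f, at -0.51 and -0.37, and Lce1m, at -0.60 and -0.63, differed little between the matrices. Of the 35 envelope genes with a value, 21 were at least 0.5 lower in the Firre KO-labelled matrix, beside 27.6% of autosomal bins, and 0 were at least 0.5 higher, beside 25.3%. They share 17 bins, of which 10 were lower. With the A and B windows of WT for both matrices the difference of the run was 0.10, the opposite direction. Sprr2a3 starts in a bin without values.

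The fused-type genes were the members that differed most. Crnn was at 0.17 in WT and -1.21 in the Firre KO-labelled matrix, Flg at 0.98 and -1.42, and Hrnr at 0.77 and -1.35. The Flg values are those of the bin of its first entry. Its other entries start in the next bin, at 0.52 (0.14 to 0.90) in WT and -0.87 (-1.55 to -0.19) in the other matrix. Flg and Hrnr were on the A side in WT and on the B side in the other matrix. Crnn was on the B side in the latter, but its WT interval of -0.05 to 0.40 held 0 and its 200 kb window was at -0.40 in the WT eigenvector. Their run went from 0.43 (0.29 to 0.57) to -1.21 (-1.44 to -0.98), a difference of -1.63 (-1.90 to -1.36). The mean over its 6 bins was as low in 2.19% of autosomal runs of 6 bins. In WT the envelope run lay 0.99 (0.83 to 1.15) below the fused-type run, a contrast coded envelope minus fused-type as -0.99, while in the other matrix the contrast was 0.12 (-0.14 to 0.39). The 4 bins that follow, with the fused-type genes Rptn, Tchh and Tchhl1, which are no members, went from 0.77 (0.62 to 0.91) to -0.73 (-0.93 to -0.53). The distal flank, also without members, went from 0.28 (0.15 to 0.42) to -1.26 (-1.46 to -1.06). The mean difference over its bins was as low in 2.12% of autosomal runs of 12 bins. The eigenvector was above 0 in WT and below 0 in the other matrix in every 200 kb window of chr3:93000001-94000000, so the lower values reached past the fused-type genes.

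S100a11 and S100a10 start in the same bin, at 0.76 in WT and -0.09 in the Firre KO-labelled matrix. The distal run as a whole was at 0.78 (0.61 to 0.94) and -0.01 (-0.22 to 0.19). In WT it thus shared the A side with the neighbouring fused-type genes, and in the other matrix it stood above them while bins on both sides were on the B side. The inner part minus the proximal S100a run was -0.63 (-0.74 to -0.52) in WT and -1.55 (-1.72 to -1.38) in the Firre KO-labelled matrix, and minus the distal S100a run it was -1.14 (-1.32 to -0.96) and -1.13 (-1.36 to -0.90). Minus both S100a runs together it was -0.73 and -1.43. With the A and B windows of WT for both matrices these were -0.73 and -0.89, and with those of the Firre KO-labelled matrix -0.32 and -1.43. The size of this contrast between the matrices thus depended on the windows.

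For counts over all members, each symbol was read at the bin of its first entry. The second Flg bin, chr3:93080001-93120000, at 0.52 in WT and -0.87 in the other matrix, is thus not counted. Of the 26 bins with a value, 14 were at least 0.5 lower in the Firre KO-labelled matrix, beside 27.6% of 58938 autosomal bins. At least 0.5 higher were 0 of 26, beside 25.3%. A preference above 0 in WT and below 0 in the other matrix was found in 5 of 26 bins, beside 12.3%, and from uncorrected read pairs in 14 of 26, beside 19.7% of chromosome 3 bins. The bins are neighbours and not independent. The inner part differed by -0.78 (-0.90 to -0.66) and the gap by -0.54 (-0.66 to -0.42). The mean over the bins of the inner part, -0.80, was as low in 10.3% of autosomal runs of 32 bins. That of the gap, -0.54, was as low in 19.2% of runs of 34. The choice of partner windows bears on these values. With the WT windows for both matrices, the inner part differed by -0.09, the envelope run by 0.10 and the fused-type run by -0.81, and 4 member bins were lower and 3 higher, beside 17.3% and 28.8% of chromosome 3 bins. With only those windows that had the same sign in both matrices, the differences were -0.73, -0.47 and -1.60, and 12 member bins were lower and 2 higher, beside 25.7% and 30.2% of chromosome 3 bins. The lower preference of the envelope run thus depended on the windows, while that of the fused-type run was found with each set.

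Contacts with other autosomes, which do not use chromosome 3 windows, gave a preference of 0.60 (0.41 to 0.79) for the fused-type run in WT and -0.82 (-0.97 to -0.67) in the Firre KO-labelled matrix. The envelope run was at -0.18 (-0.29 to -0.07) and -0.80 (-0.88 to -0.72). The proximal S100a run was at 0.35 (0.23 to 0.48) and 0.51 (0.43 to 0.60), and the distal run at 0.71 (0.50 to 0.92) and 0.29 (0.14 to 0.44). The fused-type run as a whole was thus above 0 in WT and below 0 in the other matrix by this measure as well. The larger share of pairs between chromosomes in the Firre KO-labelled matrix moved with all of these differences, and its part in them was not tested. For contacts with other autosomes the windows of WT were not used for both matrices. Whether the lower envelope value depends on the windows here was thus not tested.

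**Figure D5:**
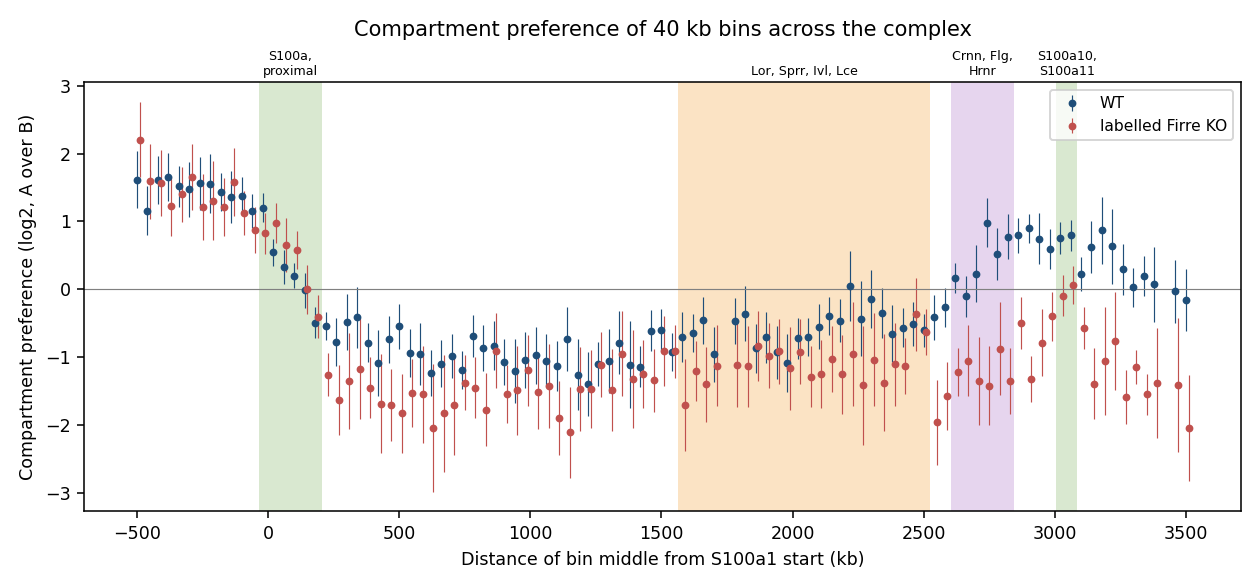
Compartment preference (log2, A over B) of 40 kb bins with 95% counting intervals against distance from the S100a1 start in kb, for WT and the Firre KO-labelled matrix. Both fall through 0 within the proximal S100a run, and WT returns above 0 over the fused-type run (0.43) and the distal S100a run (0.78), where the other matrix is at -1.21 and -0.01.

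Other genes of the epidermal programme were read in the same way, from a list made by known function. It held 28 genes outside the complex, transglutaminases such as Tgm1 that crosslink the envelope, desmosomal and envelope plakins, proteases, lipoxygenases, 4 keratins that lie in the clusters described next, and transcription factors such as Trp63 and Klf4. In WT 22 of the 28 were above 0, beside 44.3% of autosomal bins, and 17 were in the Firre KO-labelled matrix, beside 44.2%. In the latter 9 were at least 0.5 lower, beside 27.6%, among them Tgm3 (0.86 and -1.08) and Klk5 (0.67 and -0.89), and 7 were at least 0.5 higher, beside 25.3%, among them Ppl (0.45 and 1.42) and Trp63 (-0.25 and 0.64). The shares lower and higher are near the background, while the shares above 0 exceed it in both matrices. This background is all autosomal bins, those without genes included. No share over bins with genes was taken, so the excess is not read as a trait of epidermal genes. The genes, spread over many chromosomes, had a median difference of -0.23, beside -0.57 for the 51 members with a value. Without the 4 keratins, a choice made after their values were seen, 6 of 24 were at least 0.5 lower and 7 higher, and the median difference was 0.06. In the keratin clusters, which like the complex are long arrays of epithelial genes, 13 of 16 bins on chromosome 11 were above 0 in WT and 2 in the Firre KO-labelled matrix. On chromosome 15 the counts were 12 and 3 of 14. At least 0.5 lower were 13 of 16 and 10 of 14 bins, beside the same 27.6%. The keratin clusters were read with each matrix's own windows only, the choice on which the lower preference of the envelope run depended.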

How the data were processed

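Per the study's methods, reads of a group were merged, mapped to mm9, binned at 40 kb and corrected iteratively with HiC-Pro 2.7.8. The signal that the authors deposited for each pair of bins gives all kept bins an equal total. Weights per bin were fitted to recover read pairs, and 100% of entries came out within 0.05 of a whole number. Lengths of all 19 autosomes equalled those of the mm9 sequence used here.

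Insulation followed the study's settings in an own implementation (480 kb square, 320 kb delta span, 160 kb smoothing, interquartile mean, strength above 0). Placements are all autosomal blocks of the same size and spacing with at least 80% of bins kept. Intervals are analytic from the recovered read pairs, or Wilson intervals for shares. Scripts (Python 3.11.15, numpy 2.4.6, scipy 1.17.1, pandas 2.3.3, matplotlib 3.10.9) were tested on simulated data. Gene positions came from GENCODE for mm9. Members and lists were chosen with earlier results of these data known. Named genes were the single genes, the first and last of each run and family, those at called borders, and the extremes of preference. Others were named after their values were seen. Alternatives were other squares, uncorrected read pairs, medians, other expected values and other compartment windows.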

Additional observations from a re-analysis of the deposited data

How the results depend on the processing

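Of 221 recomputed values, 149 were taken as unchanged, 66 moved and 6 reversed. Unchanged means within the error where a value has one. Counts of boundaries and motif matches have none and were judged by the size of the change. The cause was not tested for any of them. No paired analysis was possible because the matrices pool both libraries of a group. The windows of the Firre KO-labelled matrix, those of the same sign, the scores at the strongest border, the blocks other than those of the inner part and the S100a runs with each other, and the gap without 3 bins were chosen after seeing the data. Depth limits the blocks of few read pairs, such as those between the S100a runs (31 and 26) and between the flanks (54 and 12).

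Edges here stand for the bins of the 480 kb borders nearest the edges of the inner part. The first was the Lor bin in WT and the Pglyrp3 bin in the other matrix. The last was the bin between Lce1m and Crnn in both. A 240 kb square gave scores of -0.99 (WT) and -1.98 (Firre KO-labelled) at the bins of the strongest 480 kb borders. WT scores with it were -0.65 at the first and -0.77 at the last edge. A 960 kb square called 3 and 1 boundaries with 0 shared. WT scores were -3.33 (same bin), -0.62 (first edge) and -1.53 (last edge). In the other matrix they were -1.29 and -0.71 at the edges. Its strongest bin had no value, so no border could be called there and the counts are not like for like. The plain mean gave -1.32 and -2.08 at the bins of the strongest 480 kb borders and -0.71 at the WT last edge. Within 2 bins, 4 boundaries were shared.

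Uncorrected read pairs, whose O/E also follows each bin's number of read pairs so that a reversal alone shows no excess or depletion, shared 0 boundaries. They gave O/E of 0.526 and 0.606 within the inner part (the second reversed), 0.599 and 0.627 within the envelope run (both reversed), 0.915 within the fused-type run (Firre KO-labelled, reversed) and 1.07 between the proximal S100a run and its flank (Firre KO-labelled, reversed). Between inner part and proximal S100a they gave 1.25 and 0.565, between inner part and distal S100a 0.933 and 0.710, and between the S100a runs 3.51 and 4.54. Preference differences became -0.999 (inner), -0.70 (envelope) and -0.16 (proximal S100a). Medians over bin pairs gave 0.931 within the inner part and 0.812 between it and the proximal S100a run in WT.

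WT windows for both matrices gave preference differences of -0.094 (inner), 0.10 (envelope, reversed) and -0.81 (fused-type), with 4 member bins at least 0.5 lower, and -0.89 for the inner part minus S100a in the Firre KO-labelled matrix. Windows of the Firre KO-labelled matrix gave -0.98 (inner), -0.81 (envelope) and -0.35 (distal S100a), and -0.32 for the inner part minus S100a in WT. Windows of the same sign gave 0.36 (proximal S100a) and -1.60 for the inner part minus S100a in the Firre KO-labelled matrix. Contacts with other autosomes gave -0.42 (distal S100a), and -0.44 (WT) and -1.27 for the inner part minus S100a.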
